A study of Mus musculus with 35 samples.

Results

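The broad domains described here are stretches of chromatin carrying acetylated histone H4 (H4ac) in mouse bone marrow macrophages. A deposited H4ac region counted as broad if it was wider than 10 kb and no wider than 100 kb. Broad regions from the 8 H4ac lists were joined wherever they shared at least 1 bp, and a joined domain was kept if at least 2 lists held it, that is, contributed a broad region to it. This gave 4126 domains of 5290 joined ones. The other 1164 came from 1 list each. The domains drew on 27044 broad regions among 172067 H4ac regions, out of 250088 regions of all targets in 35 lists.

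All libraries came from macrophages grown from the marrow of wild type female C57BL/6 mice aged 8 to 12 weeks, either left unstimulated or given lipopolysaccharide (LPS), a cell wall component of Gram-negative bacteria. H4ac was profiled by chromatin immunoprecipitation and sequencing at 0, 60, 120 and 240 min of LPS, with 2 libraries per time, named A and B after the letter in their titles. The other targets were the NF-κB subunit p50 (4 libraries at 60 min of LPS and 3 unstimulated), the NF-κB subunit p65 (1 unstimulated, 2 at 60 min and 2 at 120 min), the transcription factor ATF3 (3 at 240 min), RNA polymerase II (Pol II; 1 unstimulated, 2 at 60 min, 1 at 120 min, 2 at 240 min and 1 at 360 min) and trimethylated lysine 27 of histone H3 (H3K27me3; 1 each unstimulated, at 120, 240 and 480 min, and at 60 min followed by a 7 h delay). Nothing in the labels says whether libraries came from separate animals or cultures, so each p-value below reflects how far single libraries scatter and nothing more, and that scatter may be technical.

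Acetylation of histone H4 loosens the contact between histones and DNA, is read by bromodomain proteins and marks active promoters and enhancers. Long acetylated stretches are typical of highly transcribed genes and of dense enhancer clusters. In macrophages, LPS acts through Toll-like receptor 4 to send NF-κB dimers, among them p50 with p65, into the nucleus, where p65 activates transcription and p50 dimers without a transactivation domain can repress it. ATF3 is induced by the same signal and limits inflammatory transcription, Pol II marks transcribed genes, and H3K27me3 is the mark of Polycomb repression.

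Some lists stood apart. H4ac lists of letter A held 23028 to 28522 regions and those of letter B 15256 to 21058, so A lists were longer at every time. The p50 LPS list D held 324 regions, against 1118 to 1378 in the p50 LPS lists A, B and C. The ATF3 lists B and C and the p65 lists 60 min A and 120 min C rarely met H4ac regions, and they are given separately below. Read depth is unknown for every library, and intervals on shares (95%, Wilson) cover counting error over regions only.

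The domains were 10.14 to 387.09 kb wide, with a median of 52.1 kb and quartiles of 27.7 and 86.3 kb. Joining carried 656 of them (15.9%) past 100 kb, so the limit of 100 kb describes the listed regions and not all joined domains. Together they spanned 261.7 Mb, or 9.91% of the 2641 Mb up to the last listed base of each chromosome. Their share of a chromosome was highest on chromosome 19 (11.9%) and chromosome 11 (11.3%), and lowest on the X chromosome (5.09%, 131 domains) and chromosome 13 (8.19%). All 8 lists held 578 domains (14.0%), with a median width of 95.9 kb. Just 2 lists held 745 domains, with a median width of 27.8 kb, and median width climbed with each added list in between. Widths and lists chose the domains, so these values are a description. Near the limit, the narrowest domains kept were 10.14, 10.27 and 10.37 kb wide, and the widest H4ac regions left out as too narrow were 10, 9.99 and 9.99 kb wide.

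The widest domain held by all 8 lists lay on chromosome 1 at 186176101 to 186563190 (mm9, 387.09 kb). Regions up to 100 kb covered 71.0% and 51.4% of it in the unstimulated lists A and B, 23.1% and 27.2% at 60 min, 36.0% and 34.0% at 120 min, and 35.4% and 56.7% at 240 min. It held Pol II regions in all 7 Pol II lists and H3K27me3 regions in all 5 H3K27me3 lists. Another, on chromosome 1 at 107549641 to 107860390 (310.75 kb), had 14.5% and 7.0% covered in the unstimulated lists, 52.9% and 41.7% at 60 min, 49.2% and 53.7% at 120 min, and 88.8% and 90.1% at 240 min. In this coverage both libraries of each LPS time were above both unstimulated libraries there, although the domain counted as held throughout. The coverage leaves out regions over 100 kb, which lay across 37.0% to 48.5% of the length of all domains in the 8 lists. Whether such regions lay across these named domains is not given, so a change in coverage may be a change in listed width. The other 3 widest were on chromosome 4 at 140984141 to 141352890 (368.75 kb), chromosome 13 at 37794811 to 38133520 (338.71 kb) and chromosome 3 at 51035281 to 51368030 (332.75 kb). No gene annotation of build mm9 was used here, so domains are given by position without gene names.

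The H4ac lists each held 48.7% to 70.6% of the domains, and letter separated the lists more than time did. In unstimulated cells list A held 2911 domains and list B 2348. At 60 min list A held 2806 and list B 2009. At 120 min the numbers were 2739 in A and 2058 in B, and at 240 min they were 2879 in A and 2158 in B. Within a letter, the unstimulated list held the most domains of the 4, and the B lists of all 4 times lay below all A lists. Broad regions covered 45.1%, 44.2%, 43.6% and 45.2% of the domain length in the A lists at 0, 60, 120 and 240 min, and 34.6%, 31.2%, 31.3% and 33.5% in the B lists. Both lists of a time held 1949 domains at 0 min, 1667 at 60 min, 1646 at 120 min and 1780 at 240 min.

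A list that did not hold a domain was seldom empty there. Of the domains that the unstimulated list A did not hold, 490 lay for at least 50% of their length under a region wider than 100 kb, 641 had regions up to 10 kb and 84 had nothing listed. The 60 min list B had the most domains under wider regions, 1045, beside 815 with regions up to 10 kb and 257 with nothing. The 120 min list B had the most with nothing, 280. Over the 8 lists, 6.91% to 13.5% of the domains not held had nothing listed, where up to 6 domains a list had less than 50% of their length under a wider region.

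**Figure D1:**
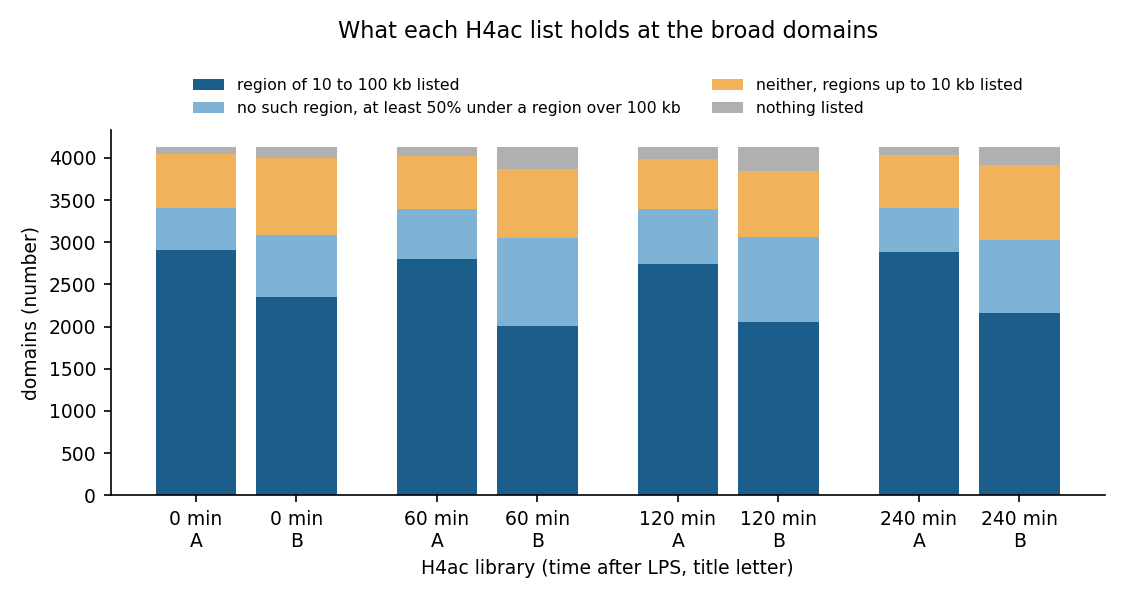
Number of the 4126 broad H4ac domains (y axis) in each H4ac library (x axis, time after LPS and title letter), split by what the list holds there. The dark bars, domains with a region of 10 to 100 kb, run from 2009 (60 min B) to 2911 (0 min A), and the grey bars, domains with nothing listed, from 84 to 280.

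Set against the unstimulated lists, a domain was counted as lost at a time if both unstimulated lists and neither list of that time held it, and as gained in the opposite case. At 60 min 378 domains (9.16%) were lost, beside 12.8% of the 24406 joined H4ac regions up to 10 kb in at least 1 list. The gained domains numbered 210 (5.09%), beside 2.7% of these narrow regions. At 120 min 474 domains (11.5%) were lost, beside 15.8% of narrow regions, and 251 (6.08%) gained, beside 3.85%. At 240 min 377 (9.14%) were lost, beside 11.1%, and 273 (6.62%) gained, beside 5.57%. Domains needed at least 2 lists, whereas the 24406 narrow regions include those of 1 list, which can be neither lost nor gained. Narrow regions in at least 2 lists numbered 19639, so the narrow shares are low by comparison. The 1360 narrow regions gained at 240 min all lie among the 19639, so the order of the gained shares at that time depends on this base. More domains were lost than gained at each time with all lists, as among narrow regions, but the order was not stable. Without the unstimulated list A, 502 were gained and 479 lost at 60 min, 539 gained and 583 lost at 120 min, and 588 gained and 471 lost at 240 min. Without the 240 min list B, 534 were gained and 518 lost at 240 min, and among domains held by at least 3 lists 235 were gained and 197 lost at that time. The 3 comparisons share the unstimulated lists, 2 libraries against 2 cannot pass a threshold of 0.05, and the same lists chose the domains, so no test was made. Lost domains had median widths of 34.2, 32.9 and 33.7 kb at 60, 120 and 240 min and gained ones 36.8, 44.1 and 44.1 kb, all below the 52.1 kb of all domains.

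Most domains counted as lost still had an H4ac region of another width listed, though 1 bp of a region up to 10 kb sufficed for this. Where at least 50% of a domain covered at any width counted as held, 228, 267 and 300 were lost at 60, 120 and 240 min. By that rule 227, 250 and 276 were gained. At 60 min, 172 of the 378 lost domains were at least 50% under a region over 100 kb in the 60 min list A, 161 had regions up to 10 kb and 45 had nothing listed. In the 60 min list B the counts were 180, 114 and 84. Nothing was listed by either 60 min list in 30 lost domains (7.94%), by either 120 min list in 63 of 474 (13.3%), and by either 240 min list in 43 of 377 (11.4%). Gained domains showed the same in the unstimulated lists: nothing was listed by either of these in 13 of 210 gained at 60 min (6.19%), 14 of 251 at 120 min (5.58%) and 17 of 273 at 240 min (6.23%). Counting a domain as held when any region of any width was listed left 49, 84 and 60 lost and 38, 42 and 43 gained at 60, 120 and 240 min. Without the LPS list A of the time, which leaves the shorter list B, the lost count was 808, 838 and 766. Without the unstimulated list B it was 604, 714 and 597. For gained domains the count was 502, 539 and 588 without the unstimulated list A, 352, 385 and 423 without the unstimulated list B, and 451, 549 and 534 without the LPS list B of the time.

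**Figure D2:**
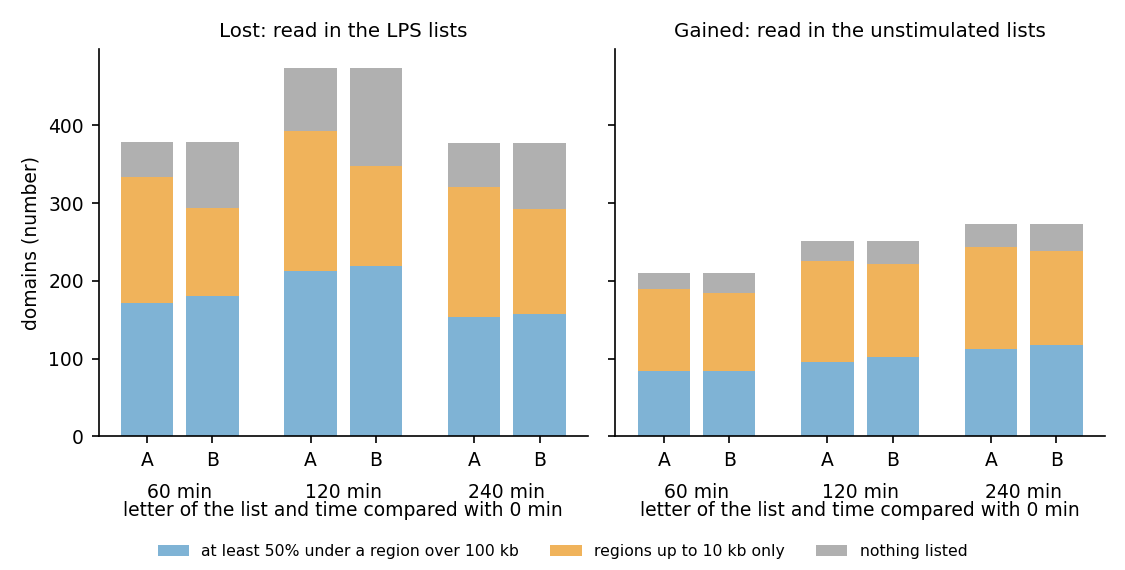
What the lists that lack a changed domain hold there: number of domains (y axis) lost (left) or gained (right) at 60, 120 and 240 min against unstimulated cells, for letters A and B (x axis). In the LPS lists 45 to 126 of the lost domains had nothing listed, and in the unstimulated lists 20 to 35 of the gained ones.

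All 6 LPS lists and neither unstimulated list held 44 domains (1.07%), with a median width of 54.1 kb. In 12 of these both unstimulated lists had a region over 100 kb across at least 50% of the domain. In 11 both had narrow regions with less than 50% under a region over 100 kb, and in 2 both had nothing. The widest, on chromosome 9 at 45700771 to 46008060 (307.29 kb), was covered to 10.8% and 9.0% by regions up to 100 kb in the unstimulated lists, 61.5% and 58.8% at 60 min, 66.1% and 91.5% at 120 min, and 51.4% and 46.3% at 240 min. Regions over 100 kb lay across it in both unstimulated lists. It had a p50 region in the LPS lists A, B and C and in no unstimulated list. It had no Pol II region in the unstimulated list, 3 at 60 min in list A and none in list B, 2 at 120 min, 4 and 8 at 240 min in lists A and B, and none at 360 min.

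A domain on chromosome 3 at 142164491 to 142309760 (145.27 kb) had 2.5% and 2.4% covered in the unstimulated lists, 23.8% and 25.3% at 60 min, 45.3% and 99.8% at 120 min, and 44.5% and 65.3% at 240 min. Its unstimulated lists held narrow regions only. Pol II had no region there in the unstimulated list, 4 in each 60 min list, 11 at 120 min, 10 and 20 at 240 min in lists A and B, and 5 at 360 min. All 6 Pol II LPS libraries thus listed it and the unstimulated library did not, and no test was made of this, with 1 unstimulated library. No p50 or p65 region lay in it, and the ATF3 list A had 2. The remaining 3 of the 5 widest were on chromosome 5 at 110522121 to 110695900 (173.78 kb), chromosome 12 at 120260661 to 120409360 (148.7 kb) and chromosome 16 at 93025021 to 93157230 (132.21 kb). The chromosome 16 domain had p50 regions in 3 LPS lists and also in 2 unstimulated ones.

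The 2 domains of this class with nothing in either unstimulated list were on chromosome 3 at 78860981 to 78955840 (94.86 kb) and on chromosome 6 at 144585161 to 144637010 (51.85 kb). The chromosome 3 domain was covered to 98% and 39% at 60 min, 33% and 11% at 120 min, and 66% and 36% at 240 min. It had 3 Pol II regions at 120 min, 3 and 2 at 240 min in lists A and B, and none in the other Pol II lists. The chromosome 6 domain had no Pol II region in any list and 1 p50 region, in the LPS list A.

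Both unstimulated lists and no LPS list held 180 domains (4.36%), which were narrow for the set (median 25.7 kb). Nothing was listed in all 6 LPS lists in 7 of them, 14 were under a region over 100 kb in all 6, and 16 had narrow regions in all 6. The widest, on chromosome 11 at 77161331 to 77261170 (99.84 kb), was covered to 78.2% and 100.0% in the unstimulated lists and 0.3% to 0.9% in the LPS lists, where a region over 100 kb lay across it every time. A second, on chromosome 11 at 53876221 to 53974590 (98.37 kb), was covered to 76.3% and 99.5% in the unstimulated lists and 0.8% to 7.7% in the LPS lists, which held narrow regions there. The others among the 5 widest were on chromosome 17 at 87056461 to 87154670 (98.21 kb), where all 5 H3K27me3 lists had a region, on chromosome 13 at 44831471 to 44929290 (97.82 kb) and on chromosome 14 at 20807941 to 20904360 (96.42 kb). Of the 7 domains with nothing in any LPS list, the widest was on chromosome 6 at 146025571 to 146107670 (82.1 kb), covered to 100% and 57% in the unstimulated lists A and B.

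Changes at a single time were few. Domains gained at 60, 120 or 240 min alone numbered 27, 23 and 38, and those lost at these times alone 19, 26 and 18. The widest lost at 60 min alone was on chromosome 19 at 11538581 to 11683260 (144.68 kb). Regions up to 100 kb covered 53.6% and 39.7% of it in the unstimulated lists, 0.4% and 0.9% at 60 min, 44.5% and 70.5% at 120 min, and 52.6% and 74.9% at 240 min. Pol II had 2 regions there in the unstimulated list, none in either 60 min list, 4 at 120 min, 8 and 12 at 240 min in lists A and B, and 2 at 360 min. Coverage by H4ac regions up to 100 kb and the number of Pol II regions were thus both low at 60 min in all libraries of that time. The widest lost at 120 min alone was on chromosome 2 at 26337501 to 26496730 (159.23 kb), and its coverage of 13.4% and 9.7% at 120 min lay close to the 15.2% of the 60 min list B, which held it. The widest gained at 60 min alone was on chromosome 1 at 73992101 to 74083790 (91.69 kb) and had no Pol II, p50, p65 or ATF3 region. Regions up to 100 kb covered 7.9% and 11.1% of it in the unstimulated lists, 26.0% and 100.0% at 60 min and at most 0.8% later. In the unstimulated list B a region over 100 kb also lay across at least 50% of it.

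Narrow H4ac regions were not used to choose the domains, though they come from the same libraries and the lists are nested, with narrow regions listed inside wider ones. The lists A and B held 3.75 and 2.87 narrow regions per domain in unstimulated cells, 3.22 and 2.15 at 60 min, 3.10 and 2.09 at 120 min, and 3.79 and 2.53 at 240 min. The 6 LPS libraries averaged 2.81 ± 0.671 per domain and the 2 unstimulated ones 3.31 ± 0.621 (SD), a difference of -0.50 that did not exceed the spread between libraries (exact two-sided permutation test, p = 0.5, Benjamini-Hochberg adjusted p = 0.5 over 4 tests). Without the unstimulated list A the difference was -0.06 per domain, and without the unstimulated list B it was -0.94. The share of a list's narrow regions that lay inside the domains was 65.8% and 68.7% in unstimulated cells, 69.7% and 73.2% at 60 min, 69.4% and 72.5% at 120 min, and 69.9% and 72.8% at 240 min. All 6 LPS values were above both unstimulated ones (71.2% ± 1.77, n = 6, against 67.3% ± 2.10, n = 2, a difference of 3.98 points). Without the unstimulated list A the difference was 2.498 points, and without the unstimulated list B 5.47 points. The exact permutation p was 0.0714, the smallest that 6 against 2 allows, with an adjusted p of 0.229. The domain set holds 6 LPS lists and 2 unstimulated ones. With the 2080 domains defined from the unstimulated lists alone the difference was 0.666 points (exact permutation p = 0.429), and with sets balanced between the unstimulated and 1 LPS time it was 1.29 to 2.31 points within each letter.

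Pol II was the target most concentrated in the domains. Its lists had 76.8% to 79.7% of their regions inside, at densities 30.0 to 35.6 times those elsewhere in the genome. The unstimulated list had a Pol II region in 2389 domains (57.9%), the 60 min lists A and B in 1864 and 1804, the 120 min list in 1521, the 240 min lists A and B in 1648 and 1861, and the 360 min list in 1171 (28.4%). These lists differ in length, with 5079 joined regions in the unstimulated list and 2025 in the 360 min list, and the share inside varied by less than 3 points between them. At least 2 of the 7 lists placed Pol II in 2450 domains (59.4%), beside 12.4% of the 6599 narrow H4ac regions that lay outside the domains. The domains had a median width of 52.1 kb and these regions 1990 bp, so the shares are not like for like. All 7 lists placed Pol II in 650 domains. Single domains held up to 27 Pol II regions in a list (60 min B).

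The ATF3 list A had 63.8% of its 3507 regions inside the domains, at 16.03 times the density outside. It met 1513 domains (36.7%), beside 7.24% of the narrow H4ac regions outside, which are far narrower than the domains. Its companion lists B and C had 14.5% and 14.2% inside, at 1.55 and 1.51 times the outside density, and met 171 and 329 domains. The 3 ATF3 libraries share 1 label, so which of them describes ATF3 at 240 min cannot be told apart from these lists.

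The p65 lists of letter X had 52.5% of regions inside in unstimulated cells, 60.1% at 60 min and 48.6% at 120 min, in 106, 256 and 200 domains. The 60 min list A and the 120 min list C had 9.61% and 13.3% inside, at 0.967 and 1.40 times the density outside, though they met 203 and 255 domains. The 60 min list X met 6.20% of the domains, beside 1.45% of the narrow H4ac regions outside, which are far narrower than the domains. No test of p65 between conditions was made.

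H3K27me3 had 13.3% to 16.1% of its regions inside by 1 bp of overlap, at 1.40 to 1.74 times the outside density. At least 2 of its 5 lists met 406 domains (9.84%). Its regions were wide (medians of 17330 to 20450 bp), and wide regions meet a domain by 1 bp more readily. Midpoints lay inside for 267 of 2825 unstimulated regions, 159 of 1569 at 120 min and 180 of 1803 at 240 min. They did for 282 of 3214 at 480 min and 289 of 3319 after the 7 h delay. The domains span 9.91% of the listed extent, so midpoints show no clear concentration. None of the 27 lists of the other targets had a region in 481 domains (11.7%).

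**Figure D3:**
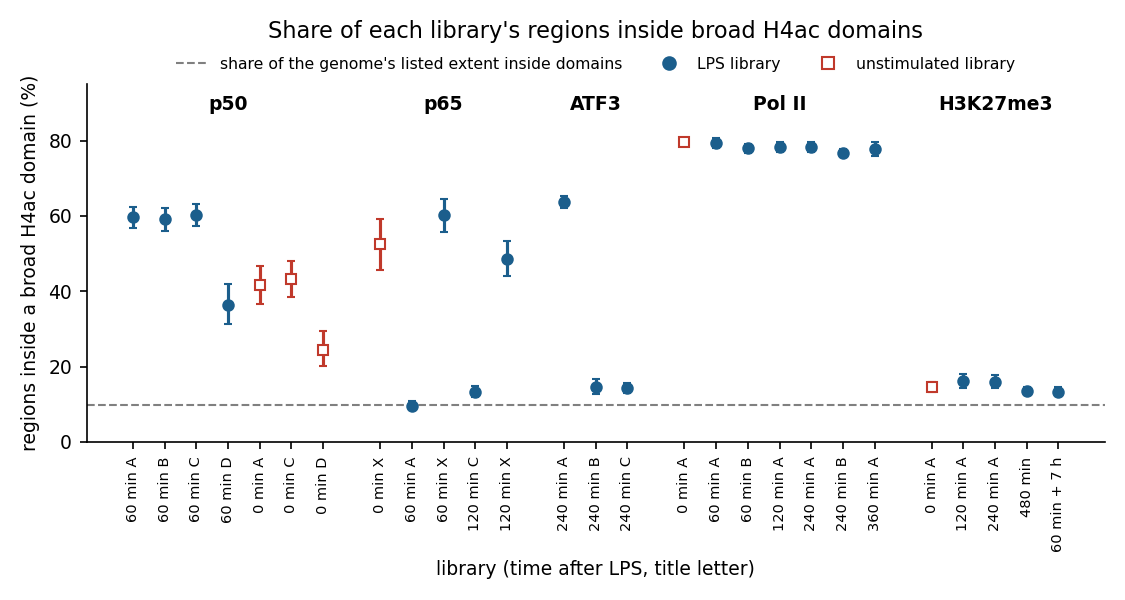
Share of each library's regions that lie inside a broad H4ac domain (y axis, percent, with 95% Wilson intervals) for 27 libraries (x axis), filled for LPS and open for unstimulated. Regions count as inside at 1 bp of overlap, so wide regions, such as those of H3K27me3, lie above the dashed line more readily than narrow ones. The dashed line is the 9.91% of the genome's listed extent that the domains span; Pol II sits at 76.8% to 79.7%, while the p65 lists 60 min A and 120 min C and the ATF3 lists B and C sit between 9.61% and 14.5%.

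At 60 min of LPS, p50 lists A, B, C and D had 59.6%, 59.2%, 60.3% and 36.4% of their regions inside the domains, against 41.6%, 43.2% and 24.5% in the unstimulated lists A, C and D. Lists A, B and C at 60 min lay above all unstimulated lists, while the 60 min list D lay between them. Within each of the letters A, C and D, which share a title date in both conditions, the LPS list was above the unstimulated one. The share averaged 53.9% ± 11.7 in the LPS libraries (SD, n = 4) and 36.4% ± 10.4 in the unstimulated ones (n = 3). The difference of 17.4 points did not pass a two-sided exact permutation test (p = 0.171, where 0.0571 is the smallest p that 4 against 3 allows, adjusted p = 0.229). The LPS lists A, B, C and D met 596, 512, 573 and 109 domains, against 149, 162 and 79 for the unstimulated lists A, C and D, on average 447.5 ± 228 in LPS lists and 130 ± 44.6 in unstimulated lists, a ratio of 3.44 (exact permutation p = 0.171). The LPS lists A, B, C and D held 1182, 987, 1103 and 308 joined regions (mean 895), against 370, 398 and 331 (mean 366) in the unstimulated lists A, C and D, and the part of list length in the ratio was not tested. Letter D had the lowest share and the fewest domains in both conditions. In the domains of the unstimulated H4ac lists alone, the difference in share was 5.33 points.

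At least 2 of the 4 LPS lists placed p50 in 510 domains (12.4%), beside 1.8% of narrow H4ac regions outside. At least 2 of the 3 unstimulated lists placed it in 110 (2.67%), beside 0.485%. The domains had a median width of 52.1 kb and the narrow regions outside 1990 bp, so these shares are not like for like. Among H4ac regions of 500 to 2000 bp, the p50 share inside minus outside was -0.0211 points. In 335 of the 4126 domains p50 was listed by 2 or more of the LPS libraries and by none of the unstimulated ones. The opposite, p50 in 2 or more unstimulated lists and no LPS list, occurred in 0 domains. All 4 LPS lists and no unstimulated list had p50 in 28 domains. The LPS condition has 4 lists with a mean of 895 joined regions, and the unstimulated one 3 lists with a mean of 366. The part of list number and length in this uneven split was not tested. Of the 510 domains, 385 also had Pol II in at least 2 lists, 312 also met the ATF3 list A, 246 had both, and 52 met the p65 list X of 60 min. Over all domains, 59.4% had Pol II in at least 2 lists, 36.7% met the ATF3 list A and 6.20% that p65 list. The 510 included 28.4% of domains over 100 kb and 5.27% of those of 10 to 25 kb. Wider domains also met Pol II and the ATF3 list A more often, and the part of width in these overlaps was not tested.

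The p50 difference between conditions was greatest, at 4 LPS lists against 0 unstimulated, in 8 domains chosen for that difference and then by their number of Pol II lists and width. They lay on chromosome 1 at 64064781 to 64276250 (211.47 kb), chromosome 7 at 87512821 to 87681630 (168.81 kb), chromosome 3 at 87838881 to 87999880 (161.0 kb), chromosome 11 at 68270251 to 68336750 (66.5 kb), chromosome 9 at 108890381 to 108955470 (65.09 kb), chromosome 12 at 112664551 to 112710900 (46.35 kb), chromosome 19 at 5491621 to 5515780 (24.16 kb) and chromosome 14 at 55631381 to 55767410 (136.03 kb). All 8 met the ATF3 list A, which met 1513 of all 4126 domains (36.7%). At least 5 H4ac lists held each of the 8, as they held 2171 of all domains. At least 1 unstimulated list held each of the 8 and 3310 of all domains. Domains with more Pol II lists and greater width were also held by more H4ac lists, so the choice favoured such domains and these counts are a description. On chromosome 12, Pol II had 1 region in the unstimulated list, 18 and 17 in the 60 min lists A and B, 6 at 120 min, 2 and 3 at 240 min, and 1 at 360 min. On chromosome 7 the number of regions ran the other way, with 6 in the unstimulated Pol II list and 1 in each 60 min list. It was 1 at 120 min, 1 and 5 at 240 min in lists A and B, and 1 at 360 min. Median widths of joined Pol II regions were 2220 bp in the whole unstimulated list and 4230 and 6410 bp in the 60 min lists A and B. Pol II widths within these domains are not given, so region numbers do not measure the amount of Pol II there.

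If regions were spread evenly along a domain, 50% of them would have their midpoint in its inner 50%. The p50 lists had 35.7% to 38.7% there, the p65 lists X 29.7% to 35.5%, the ATF3 lists A, B and C 39.3%, 42.4% and 47.6%, the Pol II lists 39.9% to 47.3%, and the H3K27me3 lists 50.6% to 53.6%. The p65 lists 60 min A and 120 min C had 54.7% and 50.0% there, so the lower share in the middle did not extend to every p65 library. Of the p50 regions inside domains, 74.1% to 85.7% touched a narrow H4ac region, as did 87.9% to 94.9% of those of the p65 lists X.

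Wider domains met each target more often. Pol II in at least 2 lists was found in 39.8% of domains of 10 to 25 kb, 53.9% of those of 25 to 50 kb, 65.1% of those of 50 to 100 kb and 82.0% of those over 100 kb. For the ATF3 list A the shares were 19.96%, 30.6%, 39.4% and 63.1%, and for p50 in at least 2 LPS lists 5.27%, 8.41%, 12.4% and 28.4%. Per Mb of domain the order changed. The unstimulated Pol II list had 25.9 regions per Mb in domains of 10 to 25 kb, 20.4 in those of 25 to 50 kb, 13.9 in those of 50 to 100 kb and 14.1 in those over 100 kb. The p50 LPS list A had 3.55, 3.03, 2.36 and 2.80 regions per Mb in the same order, and all 7 Pol II lists had their highest density in the narrowest class.

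**Figure D4:**
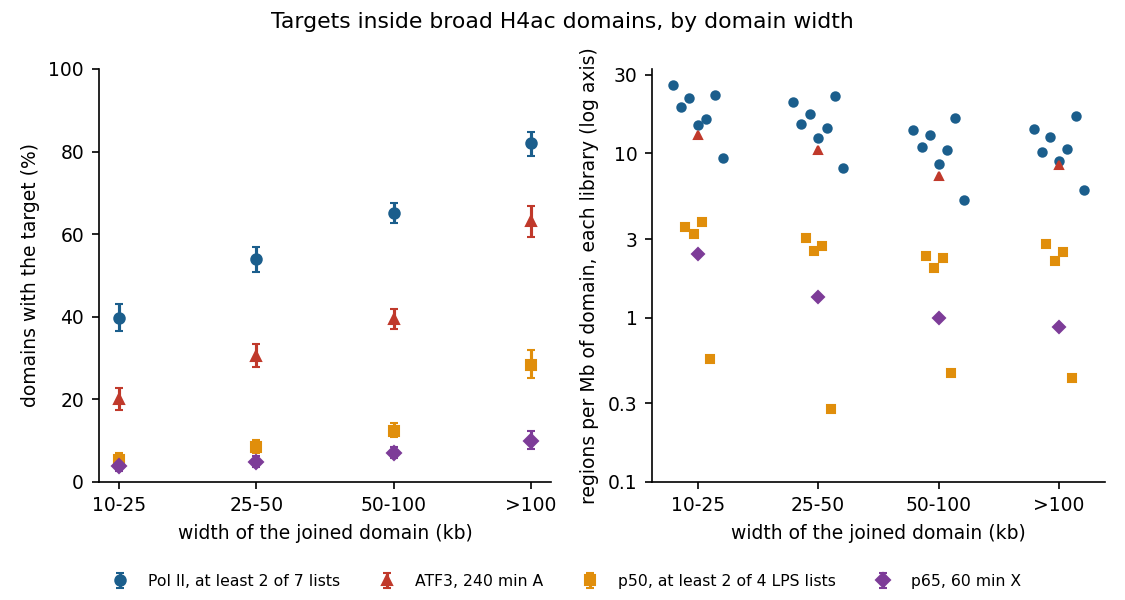
Left, share of domains with a target (y axis, percent, 95% Wilson intervals) by width of the joined domain in kb (x axis). Right, regions of the target per Mb of domain on a log axis, with 1 point for each library of Pol II (7), p50 after LPS (4), ATF3 240 min A and p65 60 min X; Pol II shares climb to 82.0% with width while its regions per Mb are highest in domains of 10 to 25 kb.

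Domains grouped by their H4ac time course had different shares with Pol II. Pol II regions were found in 40.9% of the 44 domains held by all LPS and no unstimulated H4ac list in the unstimulated Pol II list, 50.0% and 54.5% in the 60 min lists A and B, 50.0% at 120 min, 52.3% in each 240 min list and 27.3% at 360 min. In the 180 domains held by both unstimulated lists alone the shares were 22.2%, 12.2% and 10.0%, 6.11%, 6.11% and 11.1%, and 4.44% in the same order. Over all domains they were 57.9%, 45.2% and 43.7%, 36.9%, 39.9% and 45.1%, and 28.4%. In the 44 domains, the 5 lists at 60, 120 and 240 min were thus above the unstimulated list, while over all domains each LPS list was below it. The counts behind this are small, at 18 of 44 domains in the unstimulated list, 22 to 24 in these 5 lists and 12 at 360 min. The unstimulated Pol II condition has 1 library, and no test of this contrast was made. Median widths of 54.1 kb in the 44 domains and 25.7 kb in the 180 stand beside these shares.

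**Figure D5:**
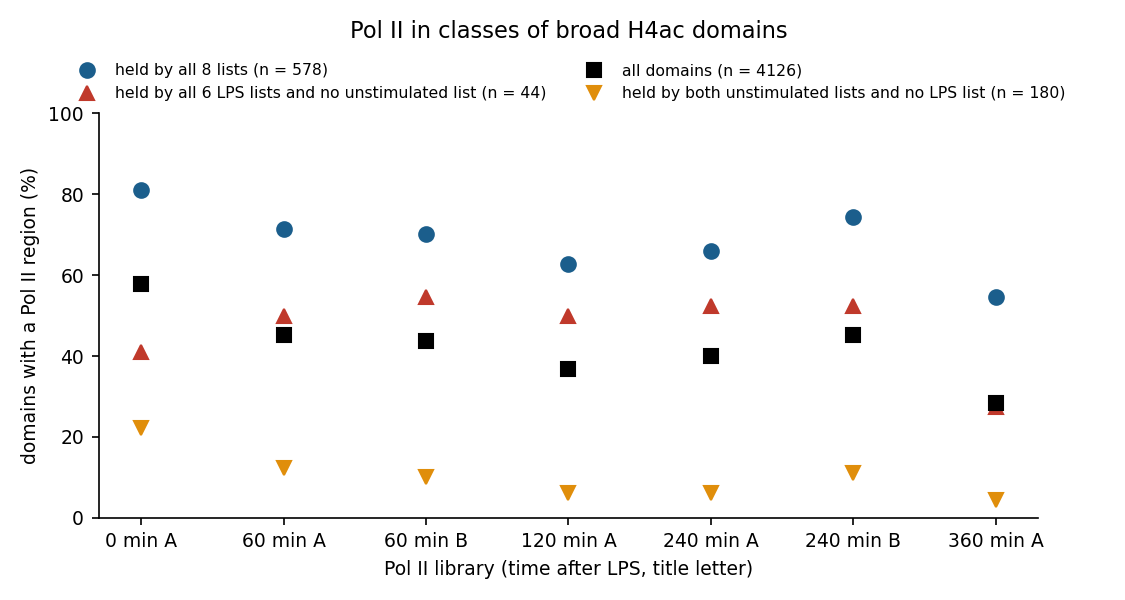
Share of domains with a Pol II region (y axis, percent) in each Pol II library (x axis, time after LPS and letter) for 4 classes of domain. The 44 domains held by all 6 LPS lists and no unstimulated list (upward triangles) are at 40.9% (18 domains) in the unstimulated library. They are between 50.0% and 54.5% (22 to 24 domains) at 60 to 240 min and at 27.3% (12 domains) at 360 min. All domains (squares) are at 57.9% in the unstimulated library and 28.4% to 45.2% after LPS.

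At 60 min the 210 gained and the 378 lost domains had similar median widths (36.8 and 34.2 kb) and differed in the factors they met. The p50 LPS lists A, B, C and D met 16.2%, 14.8%, 12.4% and 1.90% of the gained domains and 4.76%, 5.29%, 7.14% and 1.06% of the lost ones. The unstimulated p50 lists A, C and D met 4.29%, 4.76% and 1.90% of the gained domains and 2.12%, 2.12% and 1.06% of the lost ones. All 7 p50 lists thus met a larger share of gained domains than of lost ones, the unstimulated lists included. Some of these counts are small. Both D lists met 4 gained and 4 lost domains, and the unstimulated lists A and C met 9 and 10 gained and 8 and 8 lost ones. Over all domains the LPS lists A, B, C and D met 14.4%, 12.4%, 13.9% and 2.64%, so gained domains were above that in lists A and B and below it in lists C and D, while lost domains were below it in all 4. The unstimulated lists A, C and D met 3.61%, 3.93% and 1.91% of all domains. Pol II at 60 min met 41.0% and 43.8% of gained domains in lists A and B and 23.8% and 20.6% of lost ones, while the unstimulated Pol II list met 39.5% of the gained domains and 37.8% of the lost ones. All of these Pol II shares but that of the 60 min list B in gained domains were below those of all domains, which were 45.2% and 43.7% in the 60 min lists A and B and 57.9% in the unstimulated list. The p65 list X of 60 min met 2 of 210 gained domains (0.952%) and 6 of 378 lost ones (1.59%), both below the 6.20% of all domains. The p65 list A of 60 min went the other way, with 6.19% of gained and 2.65% of lost domains, against 4.92% of all domains. The ATF3 lists A and B met 43.8% and 4.29% of gained and 31.2% and 2.65% of lost domains, whereas the ATF3 list C met 5.24% of gained and 6.08% of lost ones. In all, 102 lost domains (27.0%) had no region of any of the 27 lists of other targets, against 13 gained ones (6.19%). The share over all domains, given above after that of H3K27me3, lay between these. Most of the 27 lists came from LPS, and the part of this in the contrast was not tested.

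To set like regions against like, narrow H4ac regions in at least 2 lists were compared by position: 13040 lay inside a domain (median width 2980 bp) and 6599 outside (1990 bp). The share touching a Pol II region was higher inside in all 7 Pol II lists, by 16.5 ± 3.83 points (SD), which passed an exact sign-flip permutation test (p = 0.0156, the smallest possible, Benjamini-Hochberg adjusted p = 0.0391 over 5 targets). In the unstimulated list 34.3% of inside regions and 13.7% of outside ones touched Pol II. Among H4ac regions of 500 to 2000 bp the difference was 10.3 ± 3.67 points, again in all 7 lists (exact permutation p = 0.0156, adjusted p = 0.0781). The lists share the same H4ac regions and are not separate experiments in that respect.

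For p50 the share was higher inside in 7 of 7 lists, by 1.14 ± 1.05 points (exact permutation p = 0.0156, adjusted p = 0.0391), for example 4.63% inside and 1.89% outside in the LPS list A. Among regions of 500 to 2000 bp the difference was -0.0211 points, with 3 of 7 lists higher inside (exact permutation p = 0.75), so the p50 difference did not hold among regions of like width. For p65 the difference was 0.259 points (5 of 5 lists higher, exact permutation p = 0.0625, the smallest possible), and 0.179 points among regions of 500 to 2000 bp (3 of 5, exact permutation p = 0.375). For ATF3 it was 2.15 points (3 of 3, exact permutation p = 0.25, the smallest possible), but 0.318 points without list A and 0.187 points among regions of 500 to 2000 bp. H3K27me3 was lower inside in 5 of 5 lists, with a mean difference of -2.31 points (exact permutation p = 0.0625, the smallest possible), and of -2.85 points among regions of 500 to 2000 bp.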

How the data were processed

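Single-end, 36-cycle reads came from an Illumina Genome Analyzer, per the labels' protocols. Each library has 1 deposited list of regions, with a scale number and a score per region as the authors deposited them. The score is the authors' own and served only for an alternative that kept the better-scored 50% of a list. Build mm9 is named in the submitters' processing notes. For aligner and caller, names were not given in the sources used here. Lists are nested and hold no read counts, so depth is unknown, and absence from a list means that the authors listed no region there.

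H4ac regions over 10 kb and up to 100 kb made the domains. Regions up to 10 kb of p50, p65 and ATF3 and up to 100 kb of Pol II and H3K27me3 were joined within a list and counted inside a domain at 1 bp of overlap. The members, gene lists and markers were chosen with earlier results of these data known. Domains named are the widest of each class, those with the largest p50 difference and those at the width limit. The gene lists and cell type markers were not applied, since no mm9 annotation was used here, and the labelled cell type was not checked. The groups of 1 time or condition were compared by exact permutation tests over libraries, and the share of narrow H4ac regions inside and the comparison inside against outside were added after the data were seen. Letters served as a block in an alternative. Titles date p50 libraries A and C alike in both conditions and D apart, and all H4ac B libraries alike, so the block rests on shared dates where these exist. Python 3.11.15, numpy 2.4.6, pandas 2.3.3, scipy 1.17.1, statsmodels 0.14.6 and matplotlib 3.10.9 were used, and the interval functions were tested on simulated lists.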

Additional observations from a re-analysis of the deposited data

Results flagged for a closer look

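The share of p50 regions inside the domains at 60 min of LPS was 36.4% in list D, far below the 59.2% to 60.3% of lists A, B and C. The gap to its nearest neighbour was 0.953 of the whole range of the 4 libraries, above the critical value of 0.829. Of 4 groupings checked 1 was singled out in this way, and chance alone does so in about 1 in 20. List D also held 324 regions, against 1118 to 1378 in the other LPS lists. The unstimulated p50 list D was the lowest of its group as well, at 24.5%. The part of list length or library quality in the low share was not tested. Without the LPS list D the LPS minus unstimulated difference in the share was 23.3 points.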

How the results depend on the processing

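Of 185 alternative values of 16 results, 150 stayed within the limits set for them, 33 moved past them and 2 turned round. The number of domains was 2708 with the letter B lists alone and 3854 to 4134 with 1 H4ac library left out. The lost counts depended more on what counts as held than the gained ones did. Lost domains numbered 228, 267 and 300 at 60, 120 and 240 min if at least 50% covered at any width counted as held. Of these the 300 stayed within its limit. By that rule 227, 250 and 276 were gained, within their limits. If a region over 100 kb also counted, 190, 231 and 227 were lost, and 180, 196 and 202 gained, the gained ones within their limits. If any region counted, 49, 84 and 60 were lost and 38, 42 and 43 gained. With at least 3 lists 198, 294 and 197 were lost, and with joining at 50% overlap 323, 389 and 423 were gained. Leaving out 1 library gave 479 to 808, 583 to 838 and 471 to 766 lost and 302 to 502, 366 to 549 and 377 to 588 gained. Narrow regions up to 1 kb per domain differed by 0.02 (0.0177), in place of -0.50, and p50 in H4ac regions of 500 to 2000 bp by -0.0211 points. The cause of these moves was not tested. Leaving out 1 p50 library gave a difference in share of 11.4 to 23.3 points and in domains of 268 to 430.

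With letters as a replicate block, the p50 share differed by 15.7 points and the domains with p50 by 296 (exact permutation p = 0.25 each, the smallest possible), narrow regions per domain by -0.50 (p = 0.25, exact) and the narrow share by 3.98 points (p = 0.125, exact, the smallest possible). The block changed no call. Lost and gained counts required in both letters equal the ones reported by construction, 378 and 210 at 60 min. The lists limit all of this to listed or not listed. Without counts, a change of width in a region and a change of threshold cannot be told apart.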
